A study of Homo sapiens with 12 samples.

Results

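MDA-MB-468 and BT-549 are human breast cancer cell lines of the basal-like, receptor-poor kind. The genes that set them apart without PRKCD knockdown were read from the 6 siControl arrays, 3 for each line, of the 12 expression arrays in the series. The other 6 arrays hold the same lines after transfection with an siRNA against PRKCD, the gene of protein kinase C delta. They were used to see whether a difference returned on other arrays and whether its size changed with the siRNA. The study used the PRKCD siRNA to induce cell death, so these arrays are not a neutral repeat of the line comparison. Every cell measured here had been transfected, with either a control siRNA or the PRKCD siRNA, so the siControl arrays are not arrays of untouched cells. The medium of BT-549 also held insulin and that of MDA-MB-468 did not, so line and medium cannot be told apart. Each line is a single cell line, so the differences describe these lines and not a tumour subtype. The labels number the 3 samples of each group but do not say what separates them, and the p-values therefore measure only the spread between these samples.

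A line of breast cancer cells can keep the traits of the epithelium it came from or take on those of connective tissue cells. Epithelial cells are tied to each other by E-cadherin, claudins and desmosomes, hold keratin filaments, and secrete protease inhibitors and antimicrobial proteins. Mesenchymal cells hold vimentin filaments, use N-cadherin, and make and remodel collagen matrix. The change from the epithelial to the mesenchymal state is driven by transcription factors such as SNAI2, TWIST1, ZEB1 and ZEB2, several of which bind the E-box CAGGTG in promoters of epithelial genes and repress them. MDA-MB-468 is usually placed among the epithelial-like basal lines, and BT-549 among the mesenchymal-like ones.

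The E-box is shown first in the promoters of 4 genes detected in MDA-MB-468 only and of 1 gene detected in BT-549 only. Each run is the 250 bases before the gene's start in RefSeq (GRCh38.p14), written 5′ to 3′ on the gene's own strand, with each CAGGTG or its reverse complement CACCTG in capitals. CRB3, a polarity protein of the apical membrane, lies on the plus strand (chr19:6464021-6464270) and has 5 E-boxes. DSP, the desmosome's link to keratin filaments (chr6:7541421-7541670, plus strand), has 2. LCN2, the iron-binding defence protein lipocalin-2 (chr9:128149203-128149452, plus strand), has 2. RAB25, a GTPase of epithelial recycling endosomes (chr1:156060910-156061159, plus strand), has 1. SPARC, a secreted collagen-binding protein (chr5:151686916-151687165, minus strand), has 0. These genes were picked after their values were seen, and they do not stand for all genes of their line. CLDN7, KRT8 and KLK5, also detected in MDA-MB-468 only, had 0 E-boxes in this window. AXL and BASP1, detected in BT-549 only, had 1 each. The shares over all such genes are given below.
CRB3: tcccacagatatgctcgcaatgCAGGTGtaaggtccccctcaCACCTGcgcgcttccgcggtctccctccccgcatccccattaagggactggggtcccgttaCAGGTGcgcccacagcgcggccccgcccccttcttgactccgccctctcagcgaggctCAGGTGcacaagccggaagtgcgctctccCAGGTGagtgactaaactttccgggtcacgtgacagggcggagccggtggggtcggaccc
DSP: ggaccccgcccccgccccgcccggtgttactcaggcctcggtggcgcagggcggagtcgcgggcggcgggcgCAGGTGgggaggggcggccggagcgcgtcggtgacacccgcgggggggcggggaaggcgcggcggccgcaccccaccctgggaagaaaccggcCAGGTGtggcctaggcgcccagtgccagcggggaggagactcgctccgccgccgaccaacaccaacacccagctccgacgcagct
LCN2: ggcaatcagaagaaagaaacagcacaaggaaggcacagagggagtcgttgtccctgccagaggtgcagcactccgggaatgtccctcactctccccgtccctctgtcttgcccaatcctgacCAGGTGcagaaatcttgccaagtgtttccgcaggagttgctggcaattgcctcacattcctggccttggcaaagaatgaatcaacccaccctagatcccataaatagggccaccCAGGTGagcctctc
RAB25: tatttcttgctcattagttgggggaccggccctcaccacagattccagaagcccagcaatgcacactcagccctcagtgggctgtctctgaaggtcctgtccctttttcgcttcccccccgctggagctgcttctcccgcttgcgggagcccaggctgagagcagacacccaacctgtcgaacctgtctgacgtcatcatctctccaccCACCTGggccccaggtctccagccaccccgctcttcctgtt
SPARC: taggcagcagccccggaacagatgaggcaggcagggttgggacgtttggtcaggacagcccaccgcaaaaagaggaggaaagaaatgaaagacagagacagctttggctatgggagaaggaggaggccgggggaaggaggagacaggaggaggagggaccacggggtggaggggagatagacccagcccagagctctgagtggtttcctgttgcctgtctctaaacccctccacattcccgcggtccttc

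Among the 27305 promoters of the RefSeq table, 1 per gene, 17.5% held the E-box on either strand, and among the 8831 tested genes with a promoter 15.2% did. The share was 27.5% (137 of 499) for genes detected in MDA-MB-468 only and 10% (45 of 452) for genes detected in BT-549 only. At least 2 E-boxes stood in 7.21% of the former, in 0.66% of the latter and in 1.77% of all tested genes. The order was the same in promoters with few and with many CG pairs. In promoters with 0 to 9 CG pairs the shares were 25.1% and 8.5%, and in those with 20 or more they were 30.6% and 10.6%. Other motifs were counted too, again first for genes detected in MDA-MB-468 only and then for those of BT-549. GGAATG stood in 10.2% and 8.6%, TGANTCA (N being any base) in 6.2% and 4.4%, and AACCGGTT in 0.2% and 0.2%. The CArG box CCWWWWWWGG (W being A or T) stood in 1.0% and 0.7%. All these shares are descriptions with no test, a match is not a binding site, and CDH1, EPCAM, KRT19 and COL1A2 were not in the promoter table.

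**Figure D1:**
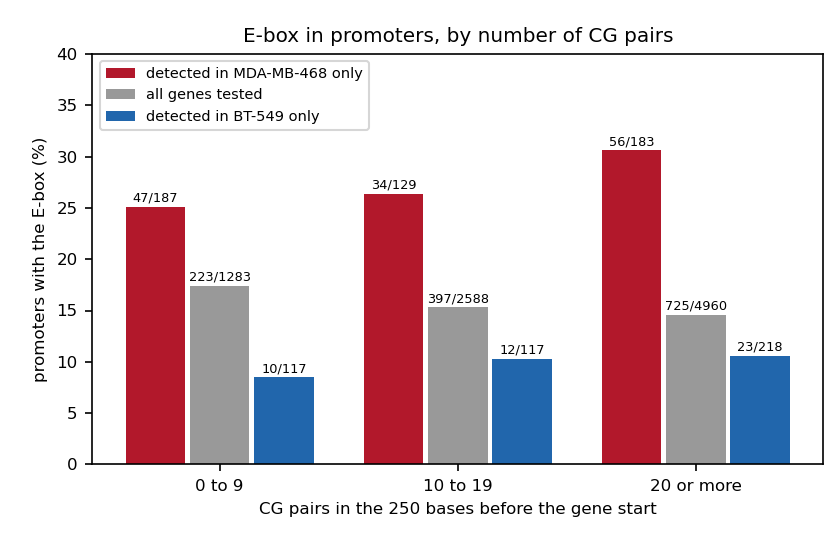
Share of promoters (percent) with at least 1 CAGGTG E-box on either strand, by the number of CG pairs in the 250 bases before the gene start, for genes detected in MDA-MB-468 only (red), all genes tested (grey) and genes detected in BT-549 only (blue). The numbers over the bars are promoters with the E-box out of all promoters in the class, and in every class the red bar is the tallest, from 25.1% to 30.6%, and the blue bar the lowest, from 8.5% to 10.6%.

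Levels are quantile-normalized log2 signals, on which 1 unit is a doubling of signal, and a difference is BT-549 minus MDA-MB-468, so that a negative value means a higher level in MDA-MB-468. No background was subtracted here, and no signal was below 66.24 before normalization. A fold that involves a dim signal, detected or not, can therefore understate the ratio of RNA. A gene was called where its difference was at least 2-fold and its Benjamini-Hochberg adjusted p in limma was under 0.05 over the 10895 genes tested. Arrays of 1 line correlated at 0.990 to 0.996 over the kept probes and arrays of different lines at 0.906 to 0.911. The arrays of MDA-MB-468 detected 16036 to 17604 probes and those of BT-549 16640 to 17263. Differences of any size had an adjusted p under 0.05 in 65.3% of genes. Every array of BT-549 lay on the same side of every array of MDA-MB-468 in 69.8% of genes, so a lack of overlap alone is common here. Of the genes tested, 1071 (9.83%) were called higher in BT-549 and 1022 (9.38%) higher in MDA-MB-468, and 295 (2.71%) and 332 (3.05%) differed at least 4-fold. Calls in either direction made up 19.2% of genes, and each list count below is to be read against these shares. Exact permutation of 3 arrays against 3 cannot give a p under 0.1 for a single gene, so the p-values rest on the spread that limma shares across genes.

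In all, 677 genes (6.21%) were detected on all 3 arrays of MDA-MB-468 with no probe detected on any array of BT-549, and 620 (5.69%) the other way round, whether or not they were called. Such a gene passed the detection filter through 1 line alone, which fixed the direction of its difference. List counts below that hold such genes describe the lines and do not test a direction. Most lists held some, also where this is not repeated. Genes seen in MDA-MB-468 only were 11 of 24 junction genes, 7 of 17 epithelial regulators and 7 of 16 S100 and defence genes. Those of BT-549 only were 5 of 19 mesenchymal cytoskeleton genes and 5 of 17 collagens. Of 28 other matrix proteins 13 were of BT-549 only and 1 of MDA-MB-468 only, and of 7 cancer-testis antigens 1 and 5. For such a gene the dim line has only a bound. The bound is given as "at least N-fold" and sets the bright line against the dimmest signal that counted as detected, or the probe's own signal where that was higher. Most of these genes were dim everywhere, with a median bound of 1.67-fold in MDA-MB-468 and 1.51-fold in BT-549. The bound reached 10-fold for 61 of the genes of MDA-MB-468 and 34 of those of BT-549. Of the 8400 genes detected on all 6 arrays, 730 were called higher in BT-549 and 588 higher in MDA-MB-468. Some called genes given below by a difference were not detected on every array of the dim line, so their difference sets a level against signals at or near the floor. ELF3 was detected on 1 of 3 BT-549 arrays and NAPRT on 1 of 3 MDA-MB-468 arrays, INHBB, KITLG, NR1H3 and NR4A2 on 2 of 3 in BT-549, and COL4A1, HOXB5, HOXC8 and TGFB3 on 2 of 3 in MDA-MB-468. Probes of 1 gene could also differ in size. Beside those named with their own values below, the weakest kept probe differed by -0.42 for AGR2, -0.33 for DSP, -0.48 for JUP, -0.62 for PRKCZ, -0.90 for HLA-F, -0.23 for PSMB8, 0.63 for SOD2, 0.54 for PRAME, 0.76 for VHL and 0.30 for CDKN2B.

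**Figure D2:**
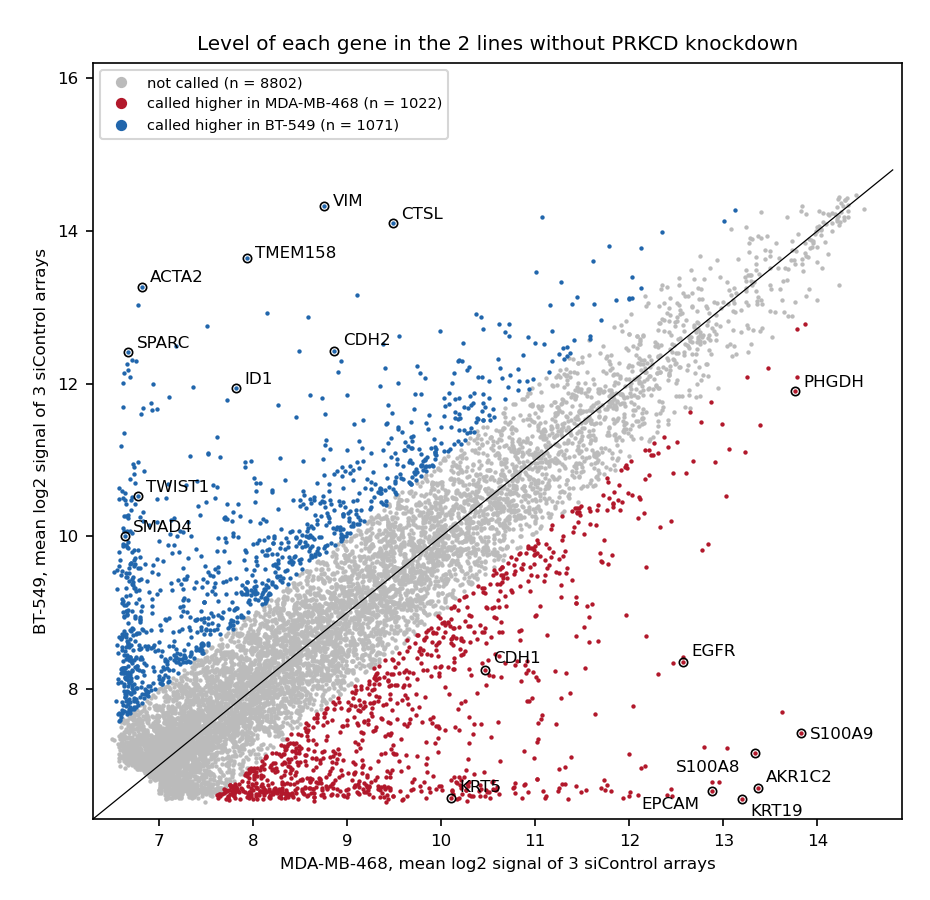
Mean log2 signal of each of the 10895 genes over the 3 siControl arrays of MDA-MB-468 (x axis) and of BT-549 (y axis), with the 1022 genes called higher in MDA-MB-468 in red, the 1071 called higher in BT-549 in blue and the line of equal levels in black. The circled genes near an axis, such as KRT19, EPCAM, ACTA2 and SPARC, were detected in 1 line only, and others such as CDH1, EGFR, VIM and CDH2 were detected in both.

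The 4 genes named as markers of this comparison were chosen with earlier results of these data known. S100A8, SPARC and COL1A2 were also among the 15 largest differences of their direction. Their values thus describe the lines and are no test. KRT5, a keratin of the basal layer, read 9.91, 9.99 and 10.41 on the MDA-MB-468 arrays and 6.55, 6.58 and 6.58 on those of BT-549, at least 8.93-fold apart (log2 difference -3.53 ± 0.12 SE, adjusted p = 4.05e-10). S100A8, a subunit of the antimicrobial protein calprotectin, read 13.29, 13.45 and 13.27 against 7.29, 7.20 and 7.01 (difference -6.17 ± 0.10, adjusted p = 1.77e-12). SPARC read 6.60, 6.65 and 6.78 in MDA-MB-468 and 12.61, 12.19 and 12.45 on the arrays of BT-549, at least 44.2-fold higher in BT-549 (difference 5.74 ± 0.11, adjusted p = 5.14e-12). COL1A2, a chain of collagen I, read 6.65, 6.64 and 6.79 against 12.20, 12.06 and 12.02, at least 35.4-fold higher in BT-549 (difference 5.40 ± 0.09, adjusted p = 1.83e-12). KRT5 and S100A8 were thus high on all 3 arrays of MDA-MB-468, SPARC and COL1A2 on all 3 of BT-549, and the arrays of the lines did not overlap for any of the 4. In BT-549, KRT5 was not detected on any array, nor were the basal keratin KRT14 and KRT16. KRT14 was near the detection limit in MDA-MB-468 too, and CDH3, the gene of P-cadherin, was higher in BT-549 (difference 1.55). These few genes thus give no verdict on the label basal-like. Markers of other cell types were low in both lines: 4 of 15 leukocyte markers were detected on all 3 MDA-MB-468 arrays and 2 on all 3 of BT-549, with a summed signal of 2116 to 2172 and 2007 to 2124, and 0 of 11 endothelial markers in either (1143 to 1179 and 1120 to 1155).

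**Figure D3:**
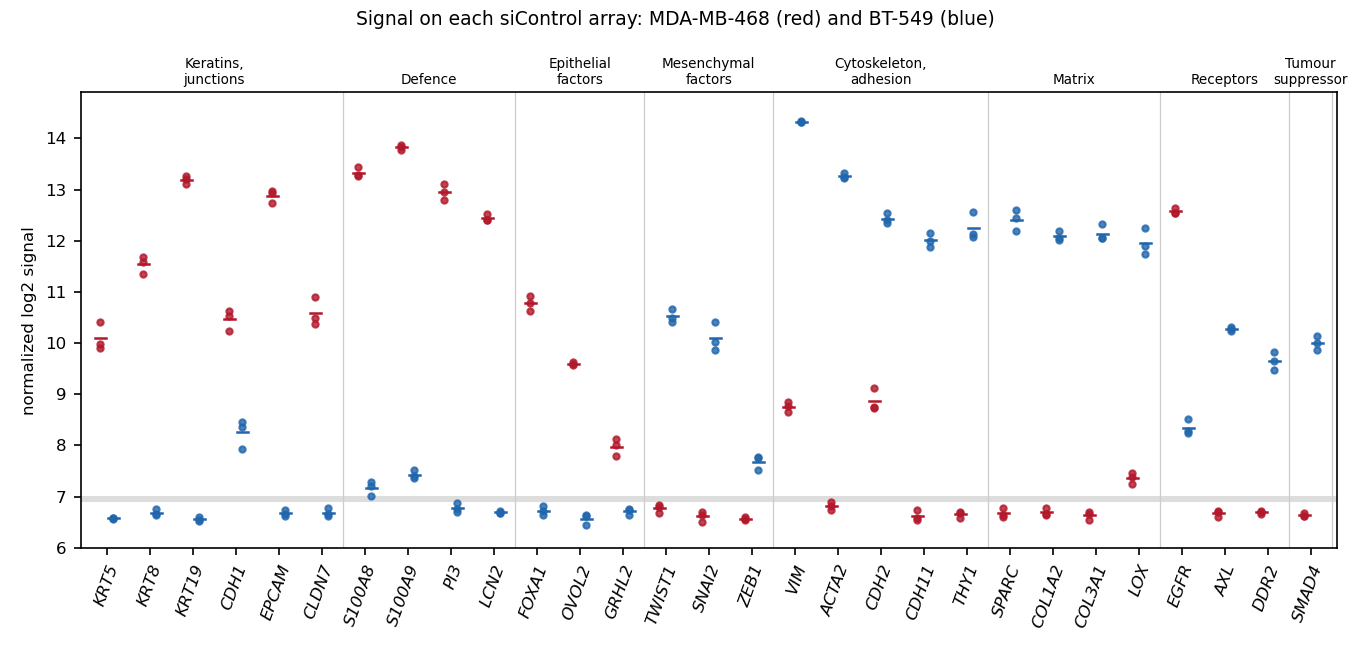
Normalized log2 signal of 29 genes on each siControl array of MDA-MB-468 (red points) and BT-549 (blue points), with a short bar at the mean of the 3 arrays; the grey band is the lowest detected signal, log2 6.91 to 7.0. Keratins, defence proteins and epithelial factors stand high in red, matrix and mesenchymal genes in blue, and the dim line lies at or under the band for all but CDH1, S100A8, S100A9, VIM, CDH2, LOX and EGFR.

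Keratins and other epithelial genes were called mostly toward MDA-MB-468. Of 11 keratins measured (17 listed), 9 were called higher in MDA-MB-468, against 0 in BT-549, with a median difference of -3.33, against a background of 9.38% of genes called in that direction. Of the 11, 9 were detected in MDA-MB-468 only, so the detection filter fixed their direction and the count is no test of it. KRT19, a keratin of simple and glandular epithelium, read 13.11, 13.27 and 13.21 in MDA-MB-468 and 6.54, 6.61 and 6.52 on the arrays of BT-549. Its level was at least 76.1-fold higher in MDA-MB-468 (difference -6.64 ± 0.09, adjusted p = 8.17e-13). The partners of simple epithelium KRT8 and KRT18, and their relative KRT7, were also seen only there, at least 24.2-fold, 3.66-fold and 15.4-fold higher. KRT16, a keratin of stressed epidermis, was at least 8.36-fold higher. The bound of KRT14 was only 1.64-fold, and its difference of -0.96 was not called. KRT10, at -0.53, was not called either, and KRT17 and KRT6B have no probe in the annotation used here.

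Of 24 adhesion and junction genes measured (36 listed), 18 were called higher in MDA-MB-468, 1 in BT-549, and the median was -2.22. EPCAM, an adhesion molecule of simple epithelium, read 12.74, 12.93 and 12.97 against 6.62, 6.67 and 6.73, at least 61.1-fold higher in MDA-MB-468 (difference -6.21 ± 0.09, adjusted p = 1.32e-12). It had the largest difference of the list. RAB25 was at least 22.4-fold higher, CLDN7, a claudin of tight junctions, 12.5-fold, and MAL2, a protein of apical transport, 10.1-fold. CRB3, whose promoter held the most E-boxes of those printed, was at least 5.6-fold higher. Of the desmosome, DSP was at least 8.29-fold higher, DSC2 differed by -3.57 and JUP, also called plakoglobin, by -3.15, and both of these were detected in BT-549 too. CDH1, the gene of E-cadherin, was not absent from BT-549. It read 10.62, 10.54 and 10.23 in MDA-MB-468 and 8.37, 8.46 and 7.94 on the arrays of BT-549, where all 3 arrays detected it, a 4.62-fold difference (-2.21 ± 0.14, adjusted p = 8.6e-08). CD24, a surface protein of luminal cells, differed by -1.69. The tight junction scaffold TJP1 (-0.51) and CLDN1 (0.43) were not called. The gene called the other way was CDH3, which encodes P-cadherin. It read 8.61, 8.57 and 7.96 in MDA-MB-468 and 10.10, 10.02 and 9.68 on the arrays of BT-549, 2.94-fold higher in BT-549 (difference 1.55 ± 0.17, adjusted p = 7.13e-06).

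Transcription and splicing regulators of epithelium followed the same direction, with 10 of 17 measured (22 listed) called higher in MDA-MB-468, 0 in BT-549 and a median of -1.48. FOXA1, the pioneer factor of luminal cells, read 10.92, 10.78 and 10.63 against 6.63, 6.71 and 6.81, at least 14.3-fold higher (difference -4.06 ± 0.10, adjusted p = 2.29e-11). OVOL2, a repressor of mesenchymal genes, was at least 6.29-fold higher, and the Ets factors EHF and SPDEF at least 4.88-fold and 3.85-fold. ELF3, another Ets factor of epithelium, differed by -3.05, with a mean of 6.86 in BT-549, where 1 of 3 arrays detected it. GRHL2, which activates CDH1 and claudin genes, was dim in MDA-MB-468 too and had a bound of 2.05-fold. The splicing regulators ESRP1 (-0.72) and ESRP2 (-0.14), and the luminal factor GATA3 (-0.14), were not called.

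Secreted protease inhibitors and proteases made up a further group, with 8 of 13 measured (19 listed) called higher in MDA-MB-468, 0 in BT-549 and a median of -2.68. Here too 10 of the 13 were detected in MDA-MB-468 only, so their direction was fixed by the filter. PI3, which encodes the elastase inhibitor elafin, read 12.95, 13.12 and 12.79 in MDA-MB-468 and 6.88, 6.71 and 6.76 on the arrays of BT-549, at least 64.3-fold apart (difference -6.17 ± 0.10, adjusted p = 1.83e-12). SPINT2, an inhibitor of the hepatocyte growth factor activator, was at least 61.3-fold higher, and the tissue kallikreins KLK5 and KLK6 at least 45.5-fold and 12.2-fold. The membrane proteases ST14, also called matriptase, and TMPRSS2 had bounds of 4.15-fold and 5.31-fold. SERPINB5, or maspin, was detected in MDA-MB-468 only, but near the detection limit (difference -0.79, not called).

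Of 16 S100 and defence genes measured (20 listed), 12 were called higher in MDA-MB-468, against 0 in BT-549, with a median of -3.70. S100A9, the partner of S100A8 in calprotectin, read 13.78, 13.84 and 13.86 in MDA-MB-468 and 7.37, 7.39 and 7.51 on the arrays of BT-549 (difference -6.40 ± 0.09, adjusted p = 8.17e-13). Calprotectin's genes were thus bright in MDA-MB-468, and were still detected on all 3 BT-549 arrays at a low level. LCN2 read 12.40, 12.52 and 12.41 against 6.67, 6.72 and 6.68, at least 45.2-fold higher (difference -5.75 ± 0.09, adjusted p = 1.31e-12). DEFB1, a defensin, was at least 27.7-fold higher, S100P 15.4-fold, AGR2, a disulphide isomerase of mucous cells, 17.6-fold, and the psoriasis protein S100A7 12.7-fold. S100A4, often used as a fibroblast and motility marker, was also higher in MDA-MB-468, the only gene of the mesenchymal cytoskeleton list called in that direction (difference -3.08 ± 0.12, adjusted p = 1.25e-09). The widely expressed S100A10 (-0.15) and S100A11 (-0.21) were not called. Other genes among the 15 largest differences toward MDA-MB-468 were RARRES1, a retinoid-induced protein (-5.92), CRABP2, the carrier of retinoic acid (-5.81), IGFBP5, a binder of insulin-like growth factors (at least 43.8-fold), and FGFBP1, a carrier of fibroblast growth factors (at least 35.5-fold).

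The factors that drive the mesenchymal state showed the reverse. Of 20 listed, 10 were measured, 8 were called higher in BT-549, against 0 in MDA-MB-468, with a median of 1.68, against 9.83% of all genes called in that direction. In 9 of the 10 no probe was detected on any array of MDA-MB-468. These 9 passed the detection filter through BT-549 alone, so the count and the median do not test the direction. TWIST1 read 6.84, 6.80 and 6.68 in MDA-MB-468 and 10.67, 10.49 and 10.41 on the arrays of BT-549, at least 11.9-fold higher in BT-549 (difference 3.75 ± 0.10, adjusted p = 3.47e-11). SNAI2, also called SLUG, read 6.51, 6.70 and 6.64 against 10.02, 9.87 and 10.42, at least 8.92-fold higher (difference 3.49 ± 0.13, adjusted p = 7.83e-10). ZEB1 and ZEB2, repressors of CDH1, were seen only in BT-549 too but at a lower signal. ZEB1 read 7.76, 7.77 and 7.51 there, with a bound of 1.66-fold, and ZEB2 7.83, 7.85 and 8.22, with a bound of 2.03-fold. PRRX1, a homeobox factor of limb and skeletal mesenchyme, was at least 11.1-fold higher by its brightest probe, while its other probe differed by 0.45. TCF4 and MSX1 had bounds of 3.39-fold and 3.93-fold. GLI3 (0.40) and TWIST2 (0.83) were not called, and SNAI1, the relative of SNAI2, was not detected on any of the 6 arrays.

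Of 19 genes of the mesenchymal cytoskeleton and surface measured (24 listed), 10 were called higher in BT-549 and 1, S100A4, in MDA-MB-468, with a median of 1.07. VIM, the gene of vimentin, read 8.66, 8.84 and 8.76 in MDA-MB-468 and 14.32, 14.32 and 14.35 on the arrays of BT-549 (difference 5.57 ± 0.09, adjusted p = 1.4e-12). It was detected on every array of both lines, and on BT-549 arrays it lay near the upper end of the scale, where the highest value of any gene was 14.53. ACTA2, the smooth muscle actin of myofibroblasts, read 6.89, 6.82 and 6.74 against 13.24, 13.33 and 13.25, at least 80.1-fold higher in BT-549 (difference 6.45 ± 0.09, adjusted p = 8.17e-13). CDH2, the gene of N-cadherin, read 8.73, 8.75 and 9.12 in MDA-MB-468, detected on all 3 arrays, and 12.34, 12.54 and 12.41 in BT-549, 11.8-fold higher (adjusted p = 2.34e-10). Both lines thus had signal for CDH1 and CDH2, and BT-549 had more CDH2 and CDH3 and less CDH1. CDH11, the cadherin of bone-forming cells, was at least 33.4-fold higher in BT-549, the fibroblast surface protein THY1 39.7-fold, and FSTL1, a secreted glycoprotein, 40.8-fold. TAGLN, an actin-binding protein of smooth muscle, differed by 3.25, TPM2, a tropomyosin, by 2.01, and CAV1, the coat protein of caveolae, by 1.65. CD44 (0.48), CALD1 (0.35) and TPM1 (0.07) were not called.

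The remaining genes with the largest differences toward BT-549 were of several kinds. BASP1, a membrane protein of nerve growth cones, was at least 67.6-fold higher, GJA1, the gap junction protein connexin 43, 41.2-fold, and RAB32, a GTPase of lysosome-related organelles, 26.8-fold. TMEM158, a membrane protein induced by RAS signalling, differed by 5.70, EMP3 by 5.31 and STMN3, a microtubule regulator of neurons, by 5.25.

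**Figure D4:**
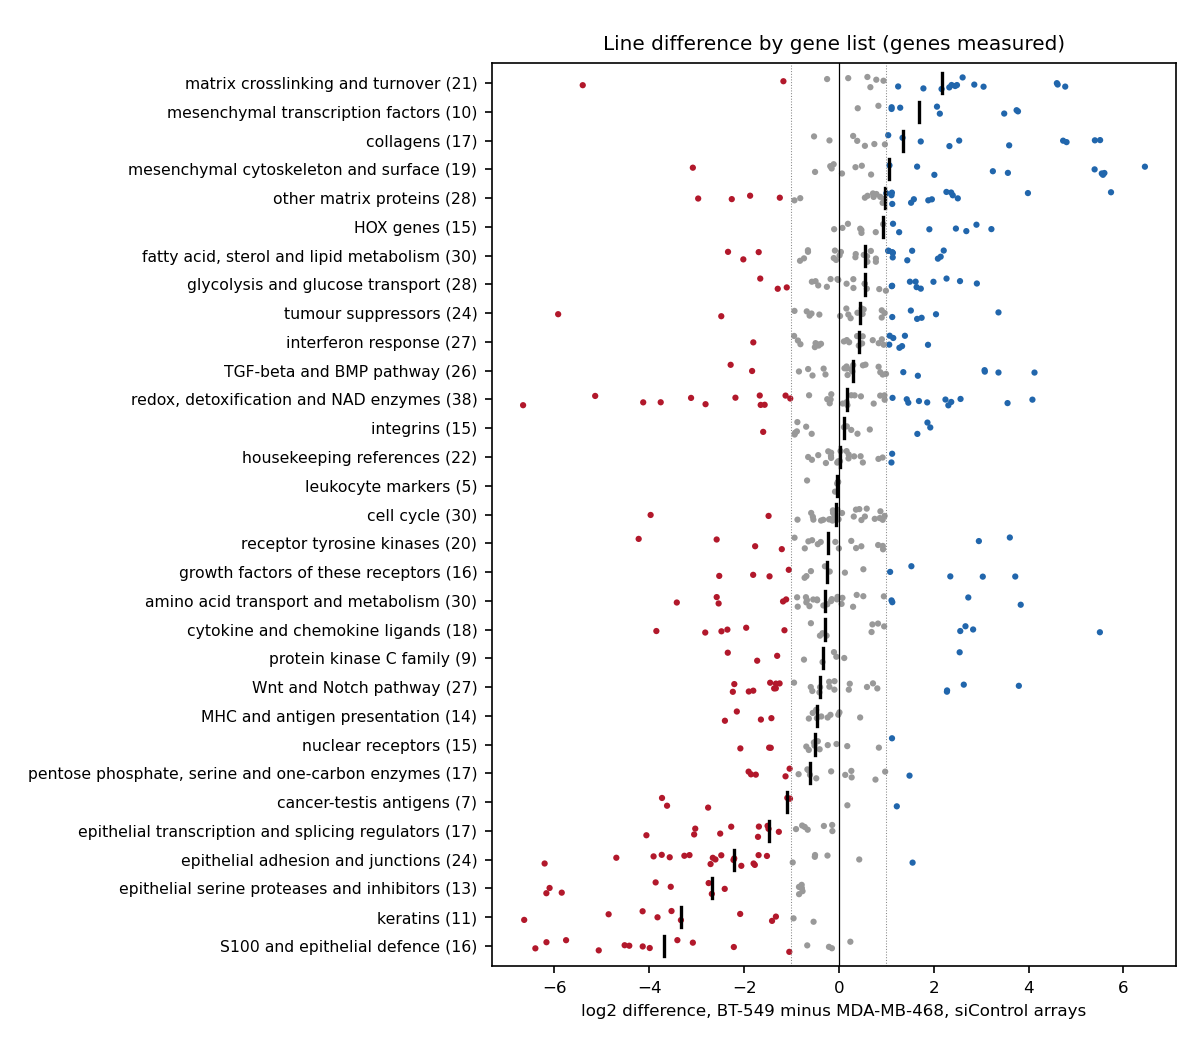
Log2 difference (BT-549 minus MDA-MB-468, siControl arrays) of each measured gene in 31 gene lists, ordered by the list's median (black bar), with the number of genes measured in brackets; red points were called higher in MDA-MB-468, blue points higher in BT-549, grey points were not called, and dotted lines mark a 2-fold difference. The lists run from S100 and defence genes, with a median of -3.70, to matrix crosslinking and turnover, with 2.17, while cell cycle and housekeeping genes lie around 0.

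Matrix genes were a second large block of BT-549. Of 17 collagen genes measured (22 listed), 10 were called higher in BT-549, against 0 in MDA-MB-468, with a median of 1.34. COL3A1 read 6.65, 6.70 and 6.54 in MDA-MB-468 and 12.32, 12.05 and 12.05 on the arrays of BT-549, at least 36.6-fold higher in BT-549 (difference 5.51 ± 0.10, adjusted p = 3.36e-12). COL1A1, the other chain of collagen I beside COL1A2, differed by 3.59. COL5A1, which seeds collagen fibrils, was at least 25.3-fold higher. COL4A1 of basement membrane differed by 4.73, while COL4A2, the gene that shares its promoter region, differed by 0.97, just short of a call. COL16A1 (-0.52) and COL18A1 (-0.20) were not called.

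Of 28 other matrix proteins measured (40 listed), 14 were called higher in BT-549, against 4 in MDA-MB-468, with a median of 0.98. After SPARC, the largest difference was that of the proteoglycan VCAN, at least 12.5-fold higher in BT-549. EFEMP2, needed for elastic fibres, POSTN, or periostin, and MFAP2 of microfibrils had bounds of 5.08-fold, 4.23-fold and 4.19-fold. TGFBI, a matrix protein induced by TGF-beta, differed by 2.27. The 4 called the other way were FBLN1, or fibulin 1 (-2.97), the basement membrane laminin chains LAMA4 (-2.26) and LAMA5 (-1.25), and the proteoglycan AGRN (-1.87). FN1, the gene of fibronectin, was not detected on any of the 6 arrays by any of its 3 probes, and its level is therefore not known from these arrays.

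Enzymes that crosslink, fold or cut the matrix had the highest median of all lists, 2.17, with 13 of 21 measured (35 listed) called higher in BT-549, against 2 in MDA-MB-468. LOX, which crosslinks collagen, read 7.39, 7.25 and 7.46 in MDA-MB-468 and 11.75, 11.90 and 12.24 on the arrays of BT-549 (difference 4.60 ± 0.13, adjusted p = 4.91e-11). Collagen prolyl hydroxylase genes P4HA1 (3.05) and P4HA2 (2.38), lysyl hydroxylase genes PLOD1 (2.17) and PLOD3 (2.61), and the collagen chaperone SERPINH1 (2.33) were higher in BT-549 as well. The protease inhibitor SERPINE2 (4.77), the lysosomal proteases CTSL (4.61) and CTSB (2.45), urokinase PLAU (2.86) and TIMP1, which inhibits metalloproteinases (2.49), were also called. The 2 genes of MDA-MB-468 were MMP7, a metalloproteinase of glandular epithelium, at least 33.3-fold higher there, and TIMP3, with a bound of 1.79-fold. Of 15 integrin genes measured (20 listed), 3 were higher in BT-549, against 1 in MDA-MB-468. That is 26.7% of the list, against 19.2% of all genes called in either direction, and the 1 of 15 toward MDA-MB-468 lies below the 9.38% over all genes. The 3 were ITGB1, the common beta chain (1.65), ITGA5 of the fibronectin receptor (at least 3.08-fold) and the collagen-binding ITGA10 (at least 3.15-fold), and the other was the leukocyte chain ITGB2 (-1.60). ITGB4 and ITGB6, chains of epithelial integrins, were detected in MDA-MB-468 only, with bounds of 1.55-fold and 1.52-fold and no call.

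Receptors separated less by number and more by a few large differences. Of 20 receptor tyrosine kinases measured (40 listed), 4 were called higher in MDA-MB-468, against 2 in BT-549, with a median of -0.23. That is 30% of the list, against 19.2% of all genes, and the 2 of 20 toward BT-549 lie near the 9.83% over all genes. EGFR read 12.64, 12.55 and 12.53 in MDA-MB-468 and 8.52, 8.29 and 8.24 on the arrays of BT-549, 18.7-fold higher in MDA-MB-468 (difference -4.22 ± 0.10, adjusted p = 1.71e-11). Its 3 probes agreed in direction, and the weakest differed by -0.59. ERBB3, the kinase-poor partner of the family, had a bound of 2.83-fold toward MDA-MB-468 by its brighter probe, while its other probe, detected on 1 BT-549 array, differed by -0.39, and ERBB2 (0.47) was not called. DDR1, the collagen receptor of epithelium, read 10.11, 10.13 and 9.89 against 7.39, 7.42 and 7.59, 5.97-fold higher in MDA-MB-468 (adjusted p = 1.07e-09) by its brighter probe, while its other probe differed by -0.40. Its relative DDR2, the collagen receptor of mesenchyme, read 6.71, 6.67 and 6.73 in MDA-MB-468 and 9.83, 9.66 and 9.47 on the arrays of BT-549, at least 6.52-fold higher in BT-549 (adjusted p = 4.02e-10). AXL read 6.72, 6.60 and 6.70 in MDA-MB-468 and 10.28, 10.24 and 10.32 on the arrays of BT-549, at least 10-fold higher (adjusted p = 1.81e-11), and GAS6, its ligand, differed by 3.72 by its brightest probe and 0.84 by its weakest. MET (-0.57) and FGFR1 (0.93) were not called, and IGF1R and PDGFRB were not detected on any array.

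Ligands of these receptors divided 5 to 4 among the 16 measured (28 listed). TGFA, a ligand of EGFR, was detected in MDA-MB-468 only (at least 4.7-fold), and KITLG, the ligand of KIT, differed by -1.81. NRG1, a ligand of ERBB3, was detected in BT-549 only (at least 6.32-fold), as was VEGFC (at least 2.37-fold), and FGF2 differed by 2.35. EGFR and TGFA were thus high in the same line, AXL and GAS6 in the same line, and ERBB3 and NRG1 in different lines. Among nuclear receptors, 15 of 30 listed were measured, 3 were higher in MDA-MB-468, against 1 in BT-549. That too is 26.7%, against 19.2% of all genes, and the 1 of 15 toward BT-549 lies below the 9.83% over all genes. They were NR1H3, the oxysterol receptor LXR alpha (-2.08), NR4A2 (-1.47), NR2F6 (-1.44) and, in BT-549, NR2F1 (1.12). The glucocorticoid receptor NR3C1 (0.84) and the vitamin D receptor VDR (-0.23) were not called. ESR1 was not detected on any array.

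The TGF-beta and BMP list had 26 genes measured (33 listed), 6 called higher in BT-549, against 2 in MDA-MB-468, with a median of 0.29. Calls made up 30.8% of it, against 19.2% of all genes, and the 2 toward MDA-MB-468 lie below the 9.38% over all genes. The ID genes, direct targets of BMP signalling that hold back differentiation, were higher in BT-549. ID1 read 7.90, 7.64 and 7.91 in MDA-MB-468 and 12.09, 11.73 and 12.01 on the arrays of BT-549 (difference 4.13 ± 0.12, adjusted p = 6.86e-11), and its other probe differed by 1.01. ID2 (3.07) and ID3 (3.08) were higher in BT-549 too, whereas ID4 (-0.56) was not called. The ligand genes INHBB (-2.28) and TGFB2 (-1.83) were higher in MDA-MB-468, and TGFB3 (1.36) and the co-receptor TGFBR3 (1.67) in BT-549. Receptor SMAD genes SMAD2 (0.12), SMAD3 (0.16) and SMAD5 (0.30) were not called. In the Wnt and Notch list, 9 of 27 measured (33 listed) were higher in MDA-MB-468, against 4 in BT-549. SFRP1, a secreted Wnt inhibitor (-2.24), WNT10A (at least 3.72-fold), NOTCH1 (-1.33), its ligand JAG1 (-1.33) and its target HES1 (-1.25) were higher in MDA-MB-468. The 4 of BT-549 were the receptors FZD2 (2.63) and FZD7 (2.28), the ligand WNT5B (2.28) and DKK3 (at least 11.8-fold). The other probe of FZD7 differed by 0.13, and the other probe of DKK3 was detected on 1 MDA-MB-468 array.

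Cytokine and chemokine genes differed by member: 6 of 18 measured (31 listed) were higher in MDA-MB-468, against 4 in BT-549. CXCL5, a neutrophil chemokine, read 6.68, 6.67 and 6.66 in MDA-MB-468 and 12.02, 12.27 and 12.24 on the arrays of BT-549, at least 37.5-fold higher in BT-549 (adjusted p = 1.83e-12). CXCL1, of the same kind, differed by 2.83, CCL2, which draws monocytes, had a bound of 5.18-fold, and CCL5 differed by 2.56. CX3CL1, or fractalkine, was at least 11.8-fold higher in MDA-MB-468, TNFSF10, the death ligand TRAIL, 5.59-fold, CCL20 5.2-fold and CCL28 of mucosal epithelium 3.25-fold. Of 14 genes of antigen presentation measured (23 listed), 4 were called higher in MDA-MB-468 and none in BT-549: HLA-B (-2.15), HLA-F (-2.40), HLA-G (-1.64) and the immunoproteasome gene PSMB8 (-1.42). These were 28.6% of the list, against 19.2% of all genes called in either direction. HLA genes are near copies of each other and differ between people, so a probe's signal may not be that of the named gene alone. B2M, the common light chain, differed by -0.01, and CIITA did not pass the detection filter.

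Interferon-response genes gave 7 calls toward BT-549 and 1 toward MDA-MB-468 among 27 measured (30 listed), with a median of 0.42. That is 29.6% of the list, against 19.2% of all genes called in either direction. IFIT1, which binds foreign RNA, read 8.82, 8.81 and 8.80 in MDA-MB-468 and 10.93, 10.61 and 10.53 on the arrays of BT-549 (difference 1.88 ± 0.11, adjusted p = 3.12e-08). The gene called the other way was IFIH1, the RNA sensor MDA5 (-1.81). OAS2 was called at 1.28 by its brightest probe, but its other probe differed by -0.49. This list did not hold its direction on the siPRKCD arrays, where 2 were called higher in BT-549, against 6 in MDA-MB-468, and the median was -0.32. The line difference itself changed with the siRNA in 14 of the 27 genes, by a limma interaction over all 12 arrays, 13 of them toward MDA-MB-468, against 11.2% of all genes (1215). With median centring in place of quantile normalization the interaction passed in 504 genes in all and in 9 of the 27, all 9 toward MDA-MB-468. IFIT2 is the only one of the 2093 called genes (0.0478%) that was called in opposite directions. Its means in MDA-MB-468 and BT-549 were 8.70 and 9.76 with siControl (difference 1.06) and 9.58 and 7.76 with siPRKCD (difference -1.82, interaction -2.88, adjusted p = 3.96e-06). MX1 was not called with siControl (-0.94) and differed by -3.32 with siPRKCD (interaction -2.36, adjusted p = 0.000646). In BT-549 the mean of MX1 was 11.27 with siControl and 8.31 with siPRKCD, and in MDA-MB-468 12.22 and 11.62.

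Metabolic genes were mixed. Of 28 glycolysis and glucose transport genes measured (32 listed), 10 were higher in BT-549, against 3 in MDA-MB-468, with a median of 0.55. The glucose transporters divided: SLC2A3 read 7.04, 7.14 and 7.19 in MDA-MB-468 and 9.24, 9.32 and 9.62 on the arrays of BT-549 (difference 2.27 ± 0.11, adjusted p = 6.78e-09), and SLC2A6 differed by 2.55. SLC2A1, the common transporter GLUT1, read 10.83, 10.85 and 11.16 against 9.20, 9.31 and 9.35, higher in MDA-MB-468 (difference -1.66 ± 0.11, adjusted p = 8.16e-08). The enzymes ALDOC (2.91), TPI1 (1.99), LDHB (1.73), PKM (1.64) and PGAM1 (1.62) were higher in BT-549, and HK2 (-0.01), LDHA (0.31) and GAPDH (0.16) were not called. Pentose phosphate, serine and folate enzymes leaned to MDA-MB-468, with 5 of 17 measured (20 listed) higher there and 1 in BT-549, and a median of -0.61. Calls made up 35.3% of these, against 19.2% of all genes. The 5 include PGLS (-1.13) and TALDO1 (-1.04) of the pentose phosphate pathway. PHGDH, which opens serine synthesis, read 13.88, 13.76 and 13.65 in MDA-MB-468 and 12.01, 12.03 and 11.68 on the arrays of BT-549 (difference -1.85 ± 0.11, adjusted p = 4.9e-08), so it was bright in both. PSPH, which closes that pathway, differed by -1.90 and the mitochondrial folate enzyme MTHFD2 by -1.75, while PSAT1 between them (-0.48) was not called. GLDC, of glycine cleavage, was the gene of BT-549 (at least 2.2-fold).

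Amino acid genes showed no common direction, with 5 of 30 measured (35 listed) higher in MDA-MB-468, against 4 in BT-549, and a median of -0.29. Calls made up 30% of the list, against 19.2% of all genes. ASS1, which makes argininosuccinate from citrulline, read 11.48, 11.45 and 11.19 in MDA-MB-468 and 7.84, 8.0 and 8.03 on the arrays of BT-549 (difference -3.42 ± 0.10, adjusted p = 1.33e-10). Of genes of tryptophan breakdown, TDO2 (at least 11.5-fold) and IDO1 (at least 1.72-fold) were higher in BT-549 and KYNU (-2.58) in MDA-MB-468. BCAT1, a branched-chain aminotransferase, was seen in BT-549 only, with a bound of 5.63-fold. Of 30 lipid genes measured (41 listed), 10 were higher in BT-549, against 3 in MDA-MB-468, with a median of 0.56. APOE and FABP5, carriers of lipid, were seen in BT-549 only (at least 4.04-fold and 3.99-fold), and FADS1 (2.09), ACSL4 (1.54), SREBF1 (1.44) and SCD (1.12) were higher there. ACSL1 (-2.34), PTGES, a prostaglandin E synthase (-2.02), and HMGCS1 of sterol synthesis (-1.69) were higher in MDA-MB-468. On the siPRKCD arrays the lipid list had 5 and 6 calls in the 2 directions.

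Redox and detoxification genes were divided, with 12 of 38 measured (46 listed) higher in MDA-MB-468, against 11 in BT-549. AKR1C2, an aldo-keto reductase of steroids, read 13.62, 13.46 and 13.01 in MDA-MB-468 and 6.62, 6.72 and 6.77 on the arrays of BT-549, at least 85.6-fold apart and the largest difference of any named gene toward MDA-MB-468 (difference -6.66 ± 0.14, adjusted p = 6.86e-12). AKR1C genes are near-identical, so that signal is not certain to be of AKR1C2 alone. AKR1C3 differed by -1.65, and AKR1C1 was not detected on any array. ALDH1A3, which makes retinoic acid, read 12.61, 12.71 and 12.08 against 8.29, 8.63 and 8.10 (difference -4.13 ± 0.17, adjusted p = 1.55e-09), and MGST1, a microsomal glutathione transferase, was at least 29-fold higher by its brightest probe, while its weakest probe differed by -0.84. NNMT, which methylates nicotinamide, read 6.75, 6.73 and 6.74 in MDA-MB-468 and 10.87, 10.91 and 10.68 on the arrays of BT-549, at least 14.7-fold higher in BT-549 (adjusted p = 1.24e-11). HMOX1, which breaks down haem, differed by 3.56, the mitochondrial superoxide dismutase SOD2 by 2.31 and NQO1 by 1.69. Of enzymes of NAD synthesis, QPRT was higher in MDA-MB-468 (-3.12), and NAMPT (1.43) and NAPRT (2.37, with a mean of 6.90 in MDA-MB-468, where 1 of 3 arrays detected it) were higher in BT-549.

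Developmental genes also differed. Of 39 listed HOX genes, 15 were measured, and 7 were called higher in BT-549, against 0 in MDA-MB-468, with a median of 0.93. HOXC8 read 6.93, 7.11 and 6.89 in MDA-MB-468 and 10.18, 10.30 and 10.09 on the arrays of BT-549 (difference 3.22 ± 0.10, adjusted p = 1.38e-10), HOXB2 had a bound of 5.84-fold, and HOXB5 differed by 2.69 and HOXC6 by 2.47, with 0.35 by its weakest probe. All 7 belonged to the HOXB and HOXC clusters, and HOXB3 (0.07), HOXC10 (0.47) and HOXD3 (-0.10) were not called. Of 29 cancer-testis antigens listed, 7 were measured, 5 were higher in MDA-MB-468 and 1, PRAME (at least 2.11-fold), in BT-549. MAGEA6, MAGEA12 and MAGEA3 had bounds of 11-fold, 9.5-fold and 5.72-fold, and since MAGEA genes are near copies the count of 5 may hold fewer genes.

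The kinase that the study knocked down was itself unequal between the lines. PRKCD read 9.20, 9.18 and 8.87 in MDA-MB-468 and 7.76, 7.78 and 7.81 on the arrays of BT-549, 2.46-fold higher in MDA-MB-468 with siControl (difference -1.30 ± 0.10, adjusted p = 5.14e-07). With siPRKCD its means were 7.27 and 6.82. The mean of MDA-MB-468 was near the lowest detected signal of the siControl arrays, log2 6.91 to 7.0, and that of BT-549 was under it. The size of the line difference left after knockdown is therefore uncertain. Of 9 members of the family measured, PRKCZ, an atypical isoform, was seen in MDA-MB-468 only (at least 4.04-fold), and PRKCH differed by -1.72. PRKCA, a classical isoform, read 7.71, 7.56 and 7.81 in MDA-MB-468 and 10.25, 10.30 and 10.17 on the arrays of BT-549 (difference 2.55 ± 0.10, adjusted p = 7.4e-10). PRKCI (-0.74) and PRKCE (0.11) were not called.

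Genes of the cell cycle and reference genes gave few calls. Of 30 cell cycle genes measured, 28 were not called and the median was -0.06. The share called was 6.67%, against 19.2% of all genes. The 2 called were CCND1, the gene of cyclin D1, which read 11.92, 11.74 and 11.27 in MDA-MB-468 and 7.56, 7.76 and 7.69 on the arrays of BT-549 (difference -3.97 ± 0.15, adjusted p = 5.95e-10), and E2F2 (-1.48). MKI67 (-0.21), MYC (-0.04) and TOP2A (0.07) were not called. Of 22 housekeeping genes, 20 were not called, with a median of 0.03 and a called share of 9.09%. The exceptions were EMC7 (1.11) and the glycolytic enzyme PGK1 (1.12).

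Among tumour suppressors, 24 of 36 listed were measured, 6 were called higher in BT-549, against 2 in MDA-MB-468. That is 33.3% of the list, against 19.2% of all genes, and the 2 of 24 toward MDA-MB-468 lie below the 9.38% over all genes. SMAD4, the common partner of the TGF-beta and BMP SMADs, was not detected in MDA-MB-468. It read 6.61, 6.68 and 6.62 there and 9.86, 9.997 and 10.15 in BT-549, at least 8.3-fold apart (difference 3.37 ± 0.10, adjusted p = 7.83e-11), and no probe of it was detected on any MDA-MB-468 array. It was the only gene of the list detected in 1 line only. Its measured neighbours on chromosome 18, ME2 (0.29) and MEX3C (-0.42), were detected on all arrays of both lines and not called. The inhibitors of cyclin-dependent kinases CDKN2A (2.05) and CDKN2B (1.52) were higher in BT-549, as was VHL (1.74). INPP4B, a phosphoinositide phosphatase, read 9.53, 9.67 and 9.67 in MDA-MB-468 and 6.95, 7.25 and 7.23 on the arrays of BT-549 (difference -2.48 ± 0.10, adjusted p = 1.8e-09). RB1 was not detected on any of the 6 arrays. BRCA1 (0.16), CDKN1B (0.50) and STK11 (0.48) were not called. DNA was not measured, so a lost transcript cannot be told apart from a lost gene.

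Line-only genes also lay side by side on chromosomes (positions from RefSeq, GRCh38.p14). Runs of at least 3 neighbouring measured genes detected in the same line only numbered 19 for MDA-MB-468 and 8 for BT-549. The longest of MDA-MB-468 were keratin and antigen clusters: KRT23, KRT15, KRT19, KRT9, KRT14 and KRT16 on chromosome 17, KRT7, KRT5, KRT4, KRT8 and KRT18 on chromosome 12, and GABRA3, MAGEA3, MAGEA12, MAGEA2, CSAG3 and MAGEA6 on chromosome X. The kallikreins KLK5, KLK6 and KLK7 on chromosome 19 were a run of 3. The longest run of BT-549 was of unlike genes on chromosome 16 (chr16:4510669-4847288): CDIP1, UBALD1, MGRN1, NUDT16L1, ZNF500 and GLYR1. Of these, GLYR1, a chromatin reader, read 6.68, 6.71 and 6.56 in MDA-MB-468 and 8.44, 8.52 and 8.69 on the arrays of BT-549 (difference 1.90 ± 0.10, adjusted p = 9.74e-09). MGRN1, a ubiquitin ligase, read 6.70, 6.60 and 6.85 against 7.62, 7.61 and 7.64 (difference 0.91 ± 0.09, adjusted p = 4.5e-06). The bounds over the 6 genes ran from 1.07 to 3.04-fold, so some were near the detection limit in BT-549 too. On chromosome X a run of 5 in BT-549 held ARMCX1, ARMCX6, ARMCX3, ARMCX2 and BEX5.

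Around EGFR the difference was shared by its neighbours on chromosome 7. LANCL2, the next measured gene, read 11.13, 11.39 and 11.13 in MDA-MB-468 and 7.40, 7.42 and 7.80 on the arrays of BT-549 (difference -3.68 ± 0.13, adjusted p = 3.04e-10). VOPP1 (-2.27), NIPSNAP2 (-1.27), PSPH (-1.90) and CCT6A (-1.48), further along, were also called higher in MDA-MB-468. ZNF713 (-0.77), MRPS17 (-0.94) and SUMF2 (-0.72) had the same sign with no call. On the other side of EGFR, GRB10 (0.47) and FIGNL1 (0.17) had the opposite sign and were not called, and beyond them UPP1 (-2.30) and SUN3 (at least 3.25-fold) were again higher in MDA-MB-468. The serine synthesis gene PSPH, named above, is thus 1 of these neighbours.

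Whole chromosomes were shifted as well. The median difference over all genes was 0.02. On chromosome 8 it was 0.70 over 395 genes, of which 81.8% were higher in BT-549, with 127 called in that direction and 24 in the other. Chromosomes 13 (0.41) and 3 (0.32) leaned the same way, and chromosomes 11 (-0.29), 2 (-0.24) and 6 (-0.21) leaned to MDA-MB-468. In 25 Mb windows the highest median was that of the first window of chromosome 3, 0.99 over 72 genes, with 35 called higher in BT-549, against 0 in MDA-MB-468. The lowest was on the last window of chromosome 16, -0.65 over 71 genes, with 3 and 21. These medians are descriptions, genes of 1 chromosome are not replicates, and DNA copy number was not measured.

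**Figure D5:**
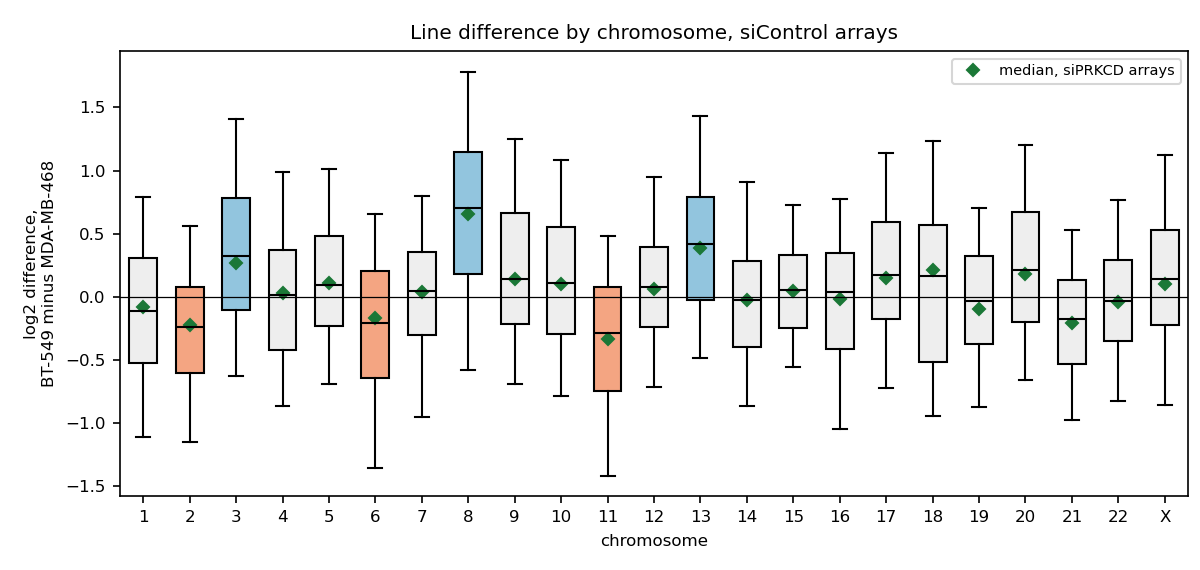
Log2 difference (BT-549 minus MDA-MB-468) of the genes of each chromosome on the siControl arrays, as a box from the lower to the upper quartile with the median as a bar and whiskers from the 10th to the 90th percentile; boxes are blue where the median is over 0.25, orange where it is under -0.20 and grey otherwise. Green diamonds are the medians on the siPRKCD arrays, which lie close to the bars, at 0.66 against 0.70 on chromosome 8.

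On the 6 siPRKCD arrays, which share no array with the siControl comparison, 1014 genes (9.31%) were called toward BT-549 and 975 (8.95%) toward MDA-MB-468. Of the siControl calls, 815 of the 1071 toward BT-549 (76.1%) and 775 of the 1022 toward MDA-MB-468 (75.8%) were called in the same direction again, which were 80.4% and 79.5% of the siPRKCD calls. Mesenchymal factors gave 7 calls toward BT-549 with siPRKCD after 8 with siControl, keratins 9 toward MDA-MB-468 under both, and junction genes 18 under both. The size of the difference changed in some lists. The interaction passed in 11.2% of all genes and in 28% of the called genes (585 of 2093), and the list counts are to be read against these shares. In keratins the median went from -3.33 to -1.84, and the difference moved toward BT-549 in 3 of 11 genes, with quantile normalization and with median centring alike. In S100 and defence genes it moved toward BT-549 with siPRKCD in 11 of 16 genes, with the list median going from -3.70 to -1.94, and in 9 of 16 with median centring. S100A8 differed by -2.27 with siPRKCD (interaction 3.92, adjusted p = 1.41e-08), its mean in MDA-MB-468 being 13.33 with siControl and 9.66 with siPRKCD. In mesenchymal cytoskeleton genes it moved toward MDA-MB-468 in 10 of 19 and toward BT-549 in 2, and in collagens in 7 of 17 and 1. With median centring these were 6 and 1, and 6 and 0. ACTA2 differed by 4.46 with siPRKCD (interaction -2.0, adjusted p = 0.000999), its mean in BT-549 being 13.27 with siControl and 11.21 with siPRKCD. In none of the 10 mesenchymal factors or the 22 housekeeping genes did the interaction pass the threshold. Genes named here outside the rule for named genes were chosen for their role after their values were seen.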

How the data were processed

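RNA of MDA-MB-468 and BT-549 cells was hybridised to Illumina human bead arrays, 3 arrays for each of 4 groups of line and siRNA. The authors deposited, for every array, a signal intensity for each of 47323 probes, not normalized and never below 66.24, and a detection p-value for each probe. They also deposited a normalized table, which a quantile normalization of the 12 arrays matched to within 0.00827 on the log2 scale and which was used only as an alternative. The scanner software and its settings were not given in the sources used here. Depth does not apply to arrays, and the 3 arrays a group limit the precision.

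Intensities of the 6 siControl arrays were quantile-normalized and taken to log2. Probes with a detection p under 0.01 on at least 3 of the 6 arrays were kept. Of the array's probes 30113 had 1 gene symbol, 8 several and 17202 none in the platform annotation, and 14455 of the 17941 kept probes had a single gene. Each gene took the values of its brightest kept probe by mean signal, which gave 10895 genes. BT-549 and MDA-MB-468 were compared with limma 3.58.1 (lmFit and eBayes) in R 4.3.3, with 4 residual degrees of freedom, and p-values were adjusted over all genes by Benjamini-Hochberg. The same fit was made on the 6 siPRKCD arrays, and the difference of the 2 contrasts was tested over all 12. The procedure was tested on simulated data.

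Deviations of same-numbered siControl samples of the 2 lines correlated at 0.109, 0.117 and 0.163, against -0.175 to 0.115 for the other pairs. These ranges overlap and the labels do not say what a number marks, so a pairing of the samples is not settled. The main fit therefore treated the samples as unpaired, and the replicate number entered only as a block in an alternative fit. The members and gene lists were chosen with earlier results of these data known. Named genes were the 4 markers, the 15 largest non-overlapping calls in each direction, and up to 5 called genes in each direction of each list, with any member of the lists of tumour suppressors, nuclear receptors, mesenchymal factors and protein kinase C. Promoters and positions came from RefSeq (GRCh38.p14). Alternatives covered background correction, normalization, the detection filter, the choice of probe, the fold limit, the replicate block and leaving out each array.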

Additional observations from a re-analysis of the deposited data

Results flagged for a closer look

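The difference between the lines was compared between the siControl and the siPRKCD arrays for 32 genes: the 4 markers, the 15 largest calls in each direction and IFIT2. It differed, by the limma interaction over 12 arrays at an adjusted p under 0.05, in 19 of them. Over all genes the interaction passed in 11.2%, and among the called genes in 28% (585 of 2093). All but KRT5 and IFIT2 were among the 15 largest siControl differences of their direction, and these include the markers S100A8, SPARC and COL1A2. IFIT2 was taken for its change of sign. Such a choice by itself favours a smaller difference on other arrays. The values here are the siPRKCD minus the siControl difference on the log2 scale. A positive value is a move toward BT-549.

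Among genes higher in MDA-MB-468, the largest move was that of S100A8, 3.92, followed by MMP7 (1.90), AKR1C2 (1.77), KRT5 (1.68), PI3 (1.66), S100A9 (1.62), CRABP2 (1.21), FGFBP1 (1.21), LCN2 (1.16), RARRES1 (0.88) and SPINT2 (0.41). In each of these the difference became smaller. IGFBP5 moved the other way (-0.63), and its difference became larger. Among genes higher in BT-549, the difference became smaller in ACTA2 (-2.0), FSTL1 (-1.58), COL3A1 (-1.18), CDH11 (-1.06), SPARC (-0.87) and COL1A2 (-0.77). IFIT2 moved by -2.88 and changed sign. The 4 markers, ACTA2 and IFIT2 also passed the threshold with median centring and with neqc background correction. The other genes named here were not looked at under those settings.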

How the results depend on the processing

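No named gene changed direction under any setting tried. Of 236 named genes all kept their side of the threshold with quantile normalization over 12 arrays, the authors' normalized table, no detection filter, 1 fit over 12 arrays, a variance trend and the replicate block, and so did those of them detected on all 6 arrays. Median centring took the calls of EFNA1 and TALDO1 and added 1, and the mean over a gene's probes took 8 (FGF5, EFNA1, PSMB8, OAS2, PCK2, SLC2A10, PRAME and TBX3). With neqc background correction none was lost and 12 were added: TWIST2, GLI3, NR3C1, NR3C2, PPARA, PPARD, ESRRA, CDKN1A, MTAP, STK11, RBL1 and CSF1R. Of these, TWIST2 (1.82 with neqc), GLI3 (1.12), NR3C1 (1.31) and STK11 (1.11) are given above as not called. That verdict thus depends on the background correction. Leaving out 1 array left 1405 of 1416 verdicts as they were, and the calls lost were those of IFI6 without MDA-MB-468 replicate 1 or 2, of TALDO1 and MAGEA2 without replicate 1, of SLC7A1, MAGEA1 and THBS1 without replicate 3, of IDO1 without BT-549 replicate 1 and of EFNA1 without BT-549 replicate 2.

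The counts of genes higher in BT-549, and then of those higher in MDA-MB-468, were 1888 and 1673 with neqc, 3731 and 3386 with no fold limit, 682 and 680 when limma's treat tested against a 2-fold difference, and 731 and 590 when only probes detected on all 6 arrays were kept before each gene's probe was chosen and the fit was made, a step that can give a gene another probe and so differs from the 730 and 588 counted within the first fit. With 1 array left out they ran from 1061 to 1111 and from 1019 to 1051. With the replicate block they stayed at 1071 and 1022. The following settings were chosen after seeing the data. With siPRKCD the counts were 1014 and 975, 888 and 1075 with median centring, which turns their order round, 1734 and 1663 with neqc, and ran from 998 to 1032 and from 942 to 1000 with 1 array left out. The interaction passed in 504 genes with median centring, in 1449 with the replicate block, and in 844 to 1178 with 1 array left out. Genes detected in 1 line only numbered 442 for MDA-MB-468 and 396 for BT-549 at a detection p under 0.05, and 529 and 926 at one under 0.001. The causes were not tested, apart from the fold limits, whose construction changes what is counted. Signals near the floor, log2 6.91 to 7.0, give only a bound, so the levels of dim genes and the share of genes detected in 1 line only depend on the detection limit.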
